A study of Mus musculus with 20 samples.

Results

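The 10 genes described here encode tubulins, stathmins and doublecortin, proteins that build and regulate the microtubules of newborn neurons. They were the β-tubulins Tubb3, Tubb2a, Tubb2b and Tubb5, the α-tubulin Tuba1a, the microtubule-binding protein Dcx, and the stathmins Stmn1, Stmn2, Stmn3 and Stmn4. All 10 were found by gene symbol among the 27998 genes of the scRNA-seq libraries and among the 24062 genes of the RNA-seq of cultured cells. The study compared Nestin-EGFP+ cells of the dentate gyrus (DG) at postnatal day 5 (P5), 12 weeks (12w) and 24 weeks (24w) by scRNA-seq and scATAC-seq, with 1 library for each age and assay. The mice carried a Nestin-EGFP transgene on a C57BL/6 background, and the sort also took pericyte-like cells, 397, 2722 and 1910 of those kept at the 3 ages. A second experiment measured RNA in cultured mouse NSCs that had been infected with a lentivirus carrying a scrambled shRNA or an shRNA against Setd8, the methyltransferase that adds 1 methyl group to lysine 20 of histone H4, and then selected with puromycin. The labels give 3 days between infection and collection, and the study's data set gives 2. The methods give the embryonic day 11 cortex as the origin of these cultured cells, whereas their labels name the hippocampus, and the number of mice behind each single-cell library is not given in the sources used here.

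Microtubules are hollow polymers of α- and β-tubulin dimers, and cells mix several tubulin genes that differ mainly in their tails. Tubb3 is the classical class III β-tubulin of neurons, Tubb2b and Tuba1a are the isotypes of the developing brain, and Tubb5 is expressed in most dividing cells. Dcx binds between protofilaments and is the standard marker of newborn neurons in the adult DG, while stathmins bind free tubulin dimers and promote disassembly. Stmn1 is cytosolic and is found in many proliferating cells, whereas Stmn2, Stmn3 and Stmn4 carry a membrane anchor and are largely neuronal.

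The genomic start regions are shown first for 5 of the 6 members that had a RefSeq window, chosen to cover each direction in the culture experiment. Stmn3 and Tubb3 were higher and Tubb5 was lower in the Setd8 knockdown (KD) library, Tubb2a lay within the range of the controls, and Dcx gave no reads in those cells. The windows hold 250 bases before and 50 bases after the RefSeq start site on GRCm38.p6, written from 5′ to 3′ on the strand of the gene, with matches to 5 searched motifs in capitals. A match on the other strand appears as its reverse complement, such as CCGCCC for GGGCGG. Stmn3 is on the minus strand at chr2:181314451-181314750, Tubb3 on the plus strand at chr8:123411303-123411602, Tubb5 on the minus strand at chr17:35838252-35838551, Tubb2a on the minus strand at chr13:34077959-34078258 and Dcx on the minus strand at chrX:143933170-143933469. Of the members with no sequence shown, Tuba1a spans chr15:98949837-98953703 on the minus strand, Tubb2b chr13:34126748-34130466 on the minus strand, Stmn1 chr4:134468320-134473843, Stmn2 chr3:8509360-8561606 and Stmn4 chr14:66344296-66361680, the last 3 on the plus strand.
Stmn3 promoter: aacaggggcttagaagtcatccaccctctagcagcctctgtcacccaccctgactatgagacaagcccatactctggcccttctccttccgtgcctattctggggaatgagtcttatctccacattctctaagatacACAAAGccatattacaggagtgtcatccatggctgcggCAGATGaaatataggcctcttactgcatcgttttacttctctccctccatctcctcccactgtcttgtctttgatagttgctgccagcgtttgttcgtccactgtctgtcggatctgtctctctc
Tubb3 promoter: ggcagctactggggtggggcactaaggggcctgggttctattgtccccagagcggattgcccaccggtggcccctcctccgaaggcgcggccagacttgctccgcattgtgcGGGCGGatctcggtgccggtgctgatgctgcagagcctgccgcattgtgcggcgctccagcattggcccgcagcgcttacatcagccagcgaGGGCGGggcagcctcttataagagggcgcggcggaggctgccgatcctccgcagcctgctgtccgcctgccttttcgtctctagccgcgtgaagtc
Tubb5 promoter: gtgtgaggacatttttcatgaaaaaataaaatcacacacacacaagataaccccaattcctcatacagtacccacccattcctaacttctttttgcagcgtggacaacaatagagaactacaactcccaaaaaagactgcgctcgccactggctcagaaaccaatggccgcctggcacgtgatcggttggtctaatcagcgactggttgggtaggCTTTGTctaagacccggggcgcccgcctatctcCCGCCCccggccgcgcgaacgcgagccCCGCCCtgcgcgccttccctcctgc
Tubb2a promoter: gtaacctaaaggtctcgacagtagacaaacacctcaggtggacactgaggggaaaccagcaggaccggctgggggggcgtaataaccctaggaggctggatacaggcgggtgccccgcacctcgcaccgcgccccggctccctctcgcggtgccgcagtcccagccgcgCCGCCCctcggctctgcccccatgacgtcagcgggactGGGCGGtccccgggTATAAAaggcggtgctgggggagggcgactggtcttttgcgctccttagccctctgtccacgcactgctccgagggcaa
Dcx promoter: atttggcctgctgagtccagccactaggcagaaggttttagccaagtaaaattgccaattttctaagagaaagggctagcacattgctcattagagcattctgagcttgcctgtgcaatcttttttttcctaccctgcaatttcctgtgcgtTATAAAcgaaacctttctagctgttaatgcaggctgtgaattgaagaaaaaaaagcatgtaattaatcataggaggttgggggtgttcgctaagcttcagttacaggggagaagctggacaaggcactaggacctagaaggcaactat

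The motifs were chosen for known classes of binding protein. The first E-box form was CAGCTG, its own reverse complement, which 16.1% of all 27025 RefSeq promoter windows held. The second E-box form was CAGATG, which 17.2% held. The letters that Sox proteins can bind were ACAAAG, which 18.7% held. The GC box was GGGCGG, held by 35.9% of windows, and the TATA box was TATAAA, held by 14.2%. No matches overlapped in the windows shown. The Stmn3 window held CAGATG beginning 75 bases before the start site and ACAAAG 113 bases before it, and held no GC box. The Tubb3 window held GGGCGG on the strand of the gene at 138 and 46 bases before the start. The Tubb5 window held GC boxes on the strand opposite to the gene 2 bases before and 26 bases after the start, and ACAAAG on that strand 35 bases before it. RefSeq gave 2 start windows for Dcx, and the one shown held TATAAA alone, 98 bases before its start, while the other held that TATAAA 193 bases and ACAAAG 8 bases before its own. In Tubb2a, 2 GC boxes lay ahead of a TATA box 29 bases before the start. The bases split the members in composition as well: 67.3% and 67.0% GC in Tubb3 and Tubb2a and 55.0% in Tubb5, but 49.7% in Stmn3 and 43.0% in Dcx, against a median of 52.7% over all windows. The tubulin windows held 16 to 26 CpGs, Dcx held 3 and Stmn3 held 6, and the median window held 7. Windows were found for 6 of the 10 members, and Tubb2b, Stmn1, Stmn2 and Stmn4 are named only.

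Cell classes were rebuilt by clustering with the 10 members kept out of the genes used, and were named from marker lists. There were 1229, 383 and 94 neural stem cell-like (NSC-like) cells in the P5, 12w and 24w libraries. Neural progenitor-like (NPC-like) cells numbered 538, 77 and 15, immature neuron 1-like (IMN1-like) cells 427, 225 and 30, and immature neuron 2-like (IMN2-like) cells 1153, 515 and 73. A further cluster of 695, 156 and 28 cells, led by the S-phase genes Hist1h2ap, Rrm2 and Mcm2 together with Neurog2 and Eomes, held more IMN1 than NPC markers among its 10 leading genes and is called the S-phase progenitor cluster. Most markers were highest in the class they name, with exceptions such as Neurod1, an IMN1 marker at 905 CPM there and 1013 CPM in IMN2-like cells, and Fxyd7, an IMN2 marker at 4.87 CPM there and 15.2 CPM in NSC-like cells. Levels are pooled unique molecular identifiers (UMIs) of a class and age as counts per 1000000 (CPM), with exact Poisson intervals at 95% that cover counting error only and not the differences between mice. Each UMI marks the 3′ end of 1 transcript, so CPM carries no gene length and can be set side by side between genes.

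The libraries differed in ways that go along with age. After removal of doublets 12752, 5271 and 2794 cells were kept (P5, 12w and 24w), with medians of 4261, 2271 and 2178 UMIs, and 86, 57 and 26 cell barcodes were shared between pairs of libraries. Xist without Y-linked RNA was found in 92.4% of the cells at 12w and in 0.0358% at 24w, and P5 was mixed, so sex and age cannot be told apart except against P5 cells of like sex. Cells held 70.6% of all UMIs at 12w and 63.0% at 24w. The same share is not defined for P5, which lists 14129 barcodes and none under 1495 UMIs against 737280 listed in each of the others, so the RNA outside cells could be profiled at 12w and 24w only. Pericyte-like (PC-like) cells, which are assumed to lack neuronal tubulin, therefore serve as the background class: Tubb3 was at 76.4, 52.1 and 39.8 CPM in them at P5, 12w and 24w, Dcx at 17.3, 6.13 and 3.29 CPM, Stmn2 at 29.0, 16.5 and 8.62 CPM, and Stmn4 at 33.6, 19.9 and 10.1 CPM. The assumption was not tested, and at 24w the Tubb3 start site was more accessible in PC-like than in NSC-like cells. This class was not the same clusters at each age: 291 of the 397 cells at P5 lay in a cluster led by haemoglobin genes that held 6 and 4 cells at 12w and 24w. In the 90, 2414 and 1734 cells of the clusters led by more pericyte than other markers, a choice made after seeing the data, Tubb3 was at 99.5, 53.0 and 41.5 CPM, Dcx at 16.2, 5.86 and 3.04 CPM, Stmn2 at 30.1, 15.9 and 7.74 CPM, and Stmn4 at 13.9 (5.1 to 30.2), 20 and 9.67 CPM, so the P5 value of Stmn4 depended on the cluster.

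Together the 10 genes took a growing share of the UMIs along the neurogenic lineage up to the immature neurons. They made up 0.555%, 0.469% and 0.402% of all UMIs in NSC-like cells at P5, 12w and 24w. The share was 1.10%, 1.36% and 1.16% in the S-phase progenitor cluster and 1.33%, 2.00% and 2.24% in NPC-like cells. It was 2.61%, 3.20% and 3.17% in IMN1-like cells and 2.70%, 2.81% and 3.16% in IMN2-like cells. With the ages pooled, all 10 members were highest in IMN1-like or IMN2-like cells among these 5 groups, while at 12w and 24w taken alone Stmn1 was highest in NPC-like cells. The share of all genes highest in IMN1-like or IMN2-like cells was not counted. The rise from NSC-like to IMN2-like cells at P5 was smallest for Tubb2a, at 1.29-fold. It came to 25.5-fold for Tubb3 and 25.2-fold for Stmn2, whose NSC-like levels are read as background, so these folds are not exact and are not ranked.

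**Figure D1:**
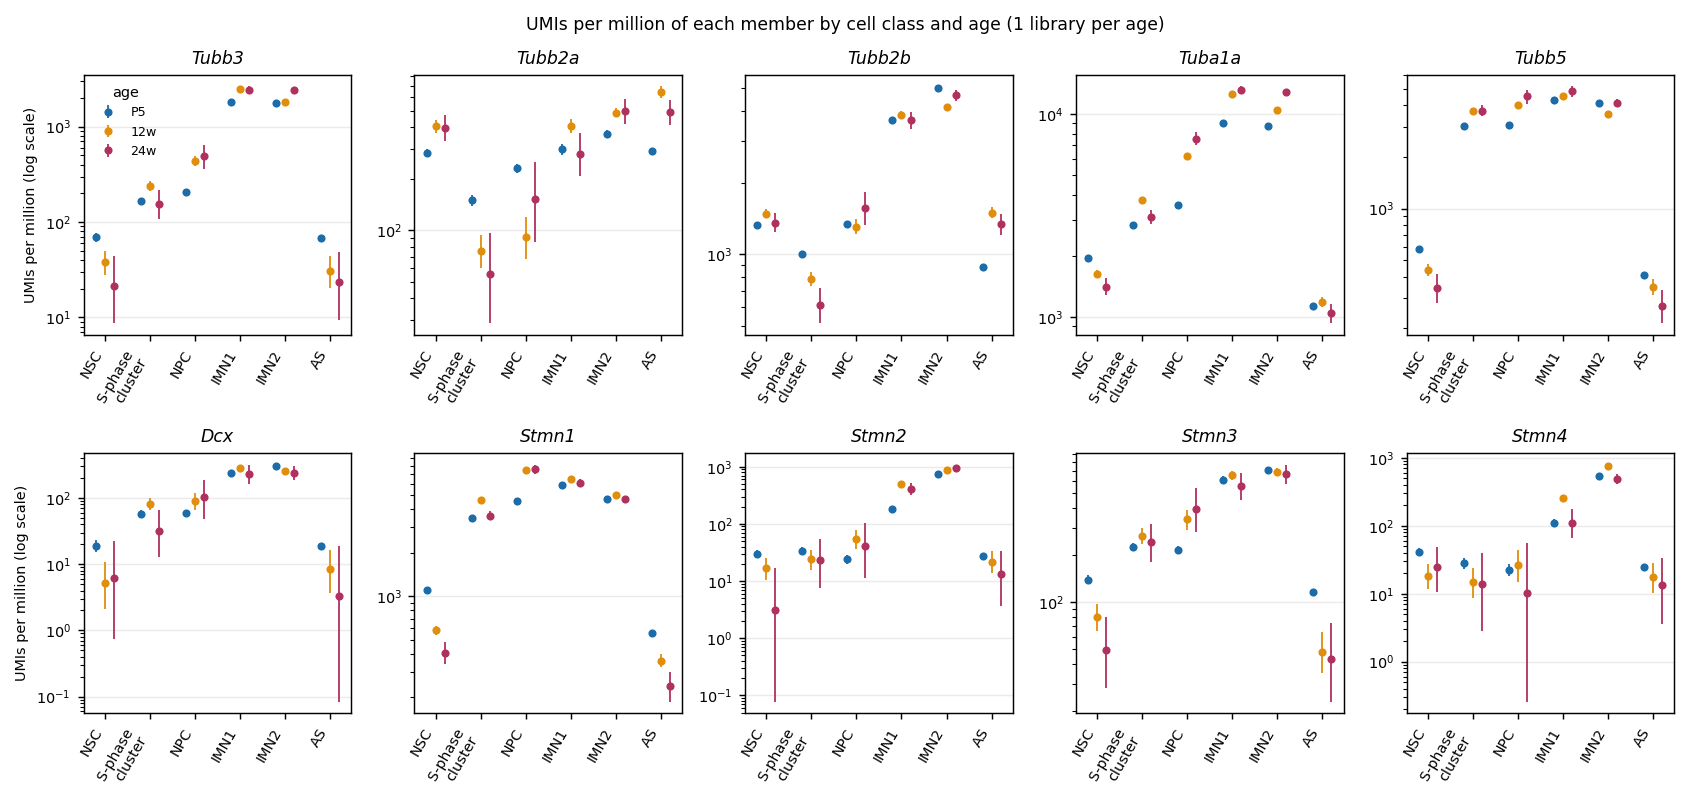
Levels of the 10 members by class at P5, 12w and 24w in CPM of pooled UMIs (log axis), with bars for exact Poisson intervals at 95%. Tubb3, Dcx and Stmn2 sit near or below the pericyte-like level (not plotted) in NSC-like cells and above it in IMN1-like and IMN2-like cells. Stmn4 is above that level in both neuron classes and near it in NSC-like cells at 12w, while at P5 its place depends on the pericyte-like clusters chosen. Tubb2a is 1.21 to 1.29 times as high in IMN2-like as in NSC-like cells and lower than in either in the S-phase progenitor cluster.

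Tubb3, the neuronal β-tubulin, had the steepest rise of the tubulins, most of it by IMN1-like cells. It was at 69.1 CPM (62.4 to 76.4), 37.8 (28.0 to 49.8) and 21.5 (8.64 to 44.3) in NSC-like cells of the 3 ages, below the pericyte-like level at every age, and the predicted free RNA came to 131% and 161% of the 12w and 24w values, so these are read as background. In the S-phase progenitor cluster it was at 166, 237 and 156 CPM and in NPC-like cells at 204, 438 and 488 CPM, above the background. IMN1-like cells held 1807 CPM (1753 to 1861), 2515 (2422 to 2610) and 2405 (2178 to 2649), and IMN2-like cells 1765 (1725 to 1806), 1814 (1753 to 1875) and 2453 (2278 to 2639). The step from NPC-like to IMN1-like cells was 8.86-fold (8.26 to 9.53) at P5, 5.75-fold at 12w and 4.93-fold at 24w, whereas that from IMN1-like to IMN2-like cells was 0.977-fold, 0.721-fold and 1.02-fold. In the largest cluster of IMN2-like cells Tubb3 was at 2083 CPM (2031 to 2137) at P5, above IMN1-like cells, and at 1833 and 2555 CPM at 12w and 24w. After each cell was thinned to 1000 UMIs, which left out no cell, Tubb3 was found in 75.0%, 78.1% and 83.6% of IMN2-like cells and in 9.32%, 5.11% and 3.35% of PC-like cells. Before thinning the shares were 92.8%, 95.9% and 95.9% against 30.5%, 8.89% and 6.23%.

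Tuba1a, the α-tubulin of developing neurons, was the most abundant member in the immature neurons. It was at 1947, 1623 and 1409 CPM in NSC-like cells at P5, 12w and 24w, of which predicted free RNA was 34.9% at 12w and 32.4% at 24w. The level was 2838, 3774 and 3111 CPM in the S-phase progenitor cluster and 3564, 6227 and 7549 CPM in NPC-like cells. It reached 9029, 12560 and 13119 CPM in IMN1-like cells and 8677, 10503 and 12796 CPM in IMN2-like cells. The rise was therefore already under way in dividing cells, and in NPC-like and IMN1-like cells both older ages lay above P5 with intervals that did not overlap. Tuba1a was also high outside the neurogenic lineage, at 8924, 6817 and 6526 CPM in the oligodendrocyte-like (OL-like) cells. Tuba1a has near-identical relatives in Tuba1b and Tuba1c, and how reads shared between them were counted was not tested.

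Tubb5 and Stmn1, the members associated with proliferation, were already high in the dividing cells. Tubb5 went from 584, 437 and 344 CPM in NSC-like cells at P5, 12w and 24w to 3043, 3686 and 3731 CPM in the S-phase progenitor cluster. It was at 3065, 4020 and 4507 CPM in NPC-like cells, at 4282, 4547 and 4822 CPM in IMN1-like cells and at 4147, 3555 and 4131 CPM in IMN2-like cells. Most of its rise thus fell before the immature neurons: NPC-like cells were 5.24-fold (5.05 to 5.45) above NSC-like cells at P5, and IMN1-like cells only 1.40-fold (1.36 to 1.43) above NPC-like cells. Stmn1 followed the same course as far as NPC-like cells, from 1102, 583 and 408 CPM in NSC-like cells through 3487, 4627 and 3612 CPM in the S-phase progenitor cluster to 4559, 7407 and 7559 CPM in NPC-like cells. In IMN1-like cells it was at 5836, 6416 and 6080 CPM and in IMN2-like cells at 4677, 4984 and 4676 CPM. IMN1-like cells were thus at 1.28-fold of the NPC-like level of Stmn1 at P5, but at 0.866-fold (0.834 to 0.900) at 12w and 0.804-fold (0.731 to 0.885) at 24w. Both were lower in pooled IMN2-like than in IMN1-like cells at all 3 ages. Stmn1 was at 0.801-fold (0.784 to 0.819), 0.777-fold (0.753 to 0.801) and 0.769-fold (0.709 to 0.834), and Tubb5 at 0.968-fold (0.945 to 0.992), 0.782-fold (0.754 to 0.811) and 0.857-fold (0.784 to 0.937). In the largest cluster of IMN2-like cells Tubb5 was at 4798 CPM (4718 to 4879) at P5, above the IMN1-like level. It was at 3593 and 4198 CPM there at 12w and 24w, below that level, so the order at P5 depended on the cluster.

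The neighbouring genes Tubb2b and Tubb2a, which are near-identical copies on chromosome 13, behaved differently. Tubb2b was already at 1327, 1480 and 1360 CPM in NSC-like cells at P5, 12w and 24w. It dipped to 998, 790 and 611 CPM in the S-phase progenitor cluster and was at 1341, 1307 and 1567 CPM in NPC-like cells. It stood higher in the immature neurons, at 3685, 3874 and 3657 CPM in IMN1-like cells and at 5019, 4178 and 4676 CPM in IMN2-like cells, so that IMN2-like cells exceeded NSC-like cells by 3.78-fold (3.68 to 3.88), 2.82-fold (2.69 to 2.97) and 3.44-fold (3.09 to 3.83). Tubb2a was at 285, 406 and 396 CPM in NSC-like cells and at 368, 489 and 498 CPM in IMN2-like cells, a ratio of 1.29 (1.2 to 1.38), 1.21 (1.08 to 1.34) and 1.26 (0.986 to 1.61). Between these ends it was lower in the dividing cells, at 150, 75.6 and 55.1 CPM in the S-phase progenitor cluster and 230, 91.0 and 153 CPM in NPC-like cells. Astrocyte-like (AS-like) cells held 291, 643 and 492 CPM of Tubb2a, above IMN2-like cells at 12w, where IMN2-like cells reached 0.762-fold (0.687 to 0.845) of their level. The 2 copies share long stretches of sequence, and how the authors' counting divided shared reads was not tested.

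Dcx marked the immature neurons but at a low count per cell. It was at 18.9, 5.29 and 6.14 CPM in NSC-like cells at P5, 12w and 24w, from 106, 7 and 2 UMIs, close to the pericyte-like level and read as background. The S-phase progenitor cluster held 57.6, 81.2 and 32.2 CPM and NPC-like cells 58.5, 89.3 and 102 CPM. IMN1-like cells held 240 CPM (221 to 260), 279 (249 to 312) and 228 (162 to 312), and IMN2-like cells 301 (285 to 318), 253 (231 to 277) and 241 (188 to 303). The 2 immature neuron classes did not differ in Dcx beyond counting error at 12w, at 0.905-fold (0.783 to 1.05), or at 24w, at 1.05-fold (0.704 to 1.60), and differed by 1.26-fold (1.14 to 1.39) at P5. In cells thinned to 1000 UMIs, Dcx was seen in 24.3%, 23.7% and 20.5% of IMN2-like cells against 1.51%, 0.588% and 0.262% of PC-like cells. Without thinning the shares were 59.5%, 57.3% and 54.8% against 7.30%, 1.18% and 0.681%, at medians of 3259, 3707 and 4230 UMIs in IMN2-like and 4670, 1832 and 1994 UMIs in PC-like cells, so a large part of cells of this class had no Dcx UMI at this depth.

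Stmn2 and Stmn4 stood higher in IMN1-like than in NPC-like cells and higher again in IMN2-like cells at every age. Stmn2, which is abundant in growth cones, was at 30.2, 16.6 and 3.07 CPM in NSC-like cells at P5, 12w and 24w and at 24.0, 54.3 and 40.7 CPM in NPC-like cells. IMN1-like cells held 184 CPM (167 to 202), 499 (459 to 543) and 410 (319 to 518), and IMN2-like cells 760 (733 to 786), 884 (843 to 928) and 966 (857 to 1085). The NPC-like value was below that of all pericyte-like cells at P5 and above it at 12w, and rested on 4 UMIs at 24w, so no fold over NPC-like cells is given. IMN2-like cells exceeded IMN1-like cells by 4.13-fold (3.74 to 4.58), 1.77-fold (1.61 to 1.95) and 2.36-fold (1.81 to 3.11). Stmn4 was at 41.6, 18.1 and 24.6 CPM in NSC-like cells and at 22.7, 26.3 and 10.2 CPM in NPC-like cells. It reached 111, 253 and 111 CPM in IMN1-like cells and 544, 754 and 495 CPM in IMN2-like cells. Its NPC-like values, from 103, 15 and 1 UMIs, lay near the background, with predicted free RNA at 56.5% and 134% of them at 12w and 24w. The step from IMN1-like to IMN2-like cells was 4.91-fold (4.32 to 5.59), 2.98-fold (2.62 to 3.39) and 4.45-fold (2.75 to 7.60). The steps of Stmn2 and Stmn4 were the largest of any member between the immature neuron classes at each age. Stmn3 had more even steps, from 139, 80.1 and 49.1 CPM in NSC-like cells through 216, 340 and 397 CPM in NPC-like cells to 610, 652 and 556 CPM in IMN1-like cells. It was at 706, 690 and 664 CPM in IMN2-like cells, and at 637, 521 and 420 CPM in the oligodendrocyte precursor-like (OPC-like) cells, of which there were 1697, 32 and 8.

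The make-up of each family differed along the lineage as well. Among the UMIs of the 4 β-tubulins, Tubb2b took 59.6% (58.8 to 60.3) in NSC-like cells, with the ages pooled and exact binomial intervals. Tubb5 took 71.6% (71.1 to 72.1) in the S-phase progenitor cluster and 64.1% in NPC-like cells, against 24.0% (23.4 to 24.7) in NSC-like cells. The most abundant β-tubulin was thus Tubb2b in NSC-like cells and Tubb5 in the dividing groups. In IMN1-like cells Tubb5 took 41.8% and Tubb2b 35.6%, and in IMN2-like cells the order turned to 36.3% for Tubb5 and 43.4% for Tubb2b. Tubb3 took 2.69%, 4.00%, 4.71%, 19.5% and 16.6% across the 5 groups, and Tubb2a 13.7%, 3.01%, 4.27%, 3.15% and 3.75%. Together the 4 β-tubulins grew from 0.228% of all UMIs in NSC-like cells to 1.09% in IMN2-like cells. Among the stathmins Stmn1 held 83.9%, 92.7%, 94.6%, 85.0% and 69.3% across the same groups, and the fall in IMN2-like cells went with 11.7% for Stmn2 and 8.78% for Stmn4, against 4.09% and 2.17% in IMN1-like cells.

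**Figure D2:**
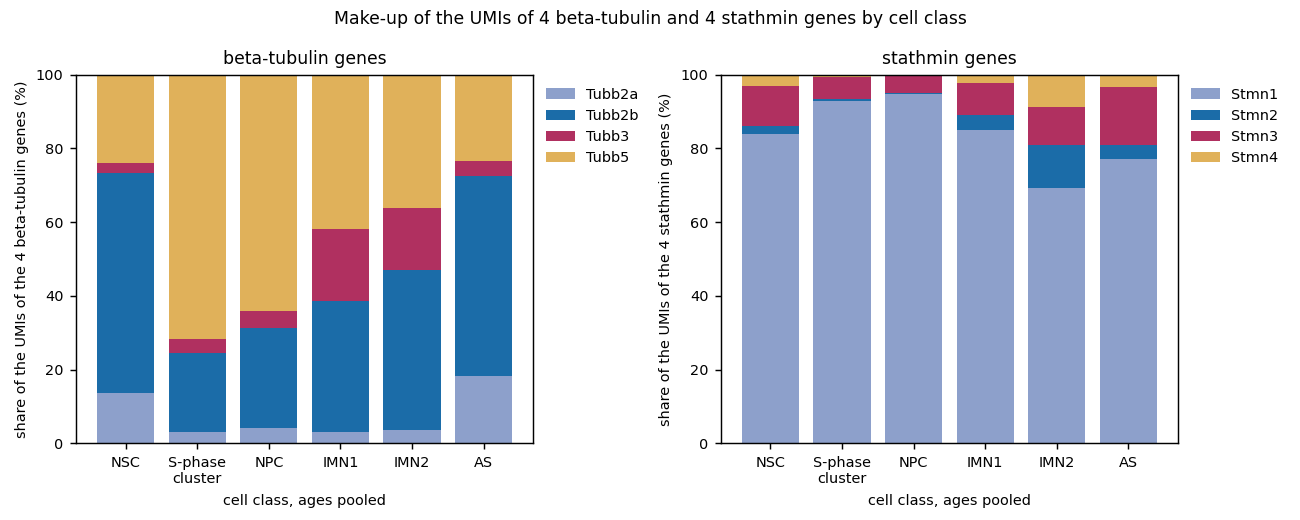
Share of each member (%) among the UMIs of the 4 β-tubulins and of the 4 stathmins in each neurogenic group. Tubb5 takes 71.6% of the β-tubulins in the S-phase progenitor cluster and 36.3% in IMN2-like cells, and Stmn2 and Stmn4 enlarge their share of the stathmins in IMN2-like cells.

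Across ages, no member moved by as much as 2-fold in IMN2-like cells. A gene was counted as past 2-fold when its pooled CPM differed by at least that much from P5 in either direction with at least 20 UMIs on the higher side, and with 1 library per age no test was possible. In IMN2-like cells 0 of 10 members passed this rule at 12w and 0 at 24w, against 15.2% and 12.1% of all genes. Their ratios to P5 ran from 0.832 for Tubb2b to 1.39 for Stmn4 at 12w and from 0.799 for Dcx to 1.47 for Tuba1a at 24w, and the median log2 ratio over all genes of the class was 0.12 and 0.14. The cells of this class came from 3 clusters in unequal parts, 588, 422 and 50 in the largest, 480, 70 and 16 in one led by Sema3c and Islr2, and 85, 23 and 7 in the smallest. In the largest alone 0 of 10 members were past 2-fold at either age, Tubb3 being at 2083, 1833 and 2555 CPM and Dcx at 321, 253 and 231 CPM. The 7 pericyte markers, all detected at each age, summed to 107 CPM at P5 and to 1112 and 2125 CPM at 12w and 24w in IMN2-like cells. The 7 OPC markers, of which 5 were detected at 24w, summed to 456, 26.4 and 54.2 CPM, and the part of either list in the result was not tested.

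In IMN1-like cells the members past 2-fold were Stmn2 and Stmn4. Stmn2 was 2.72-fold (2.39 to 3.09) higher at 12w and 2.23-fold (1.71 to 2.87) higher at 24w than at P5, from 441, 556 and 70 UMIs. Stmn4 was 2.28-fold (1.93 to 2.71) higher at 12w but 1.0-fold (0.594 to 1.60) at 24w. Thus 2 of 10 members were past 2-fold at 12w and 1 of 10 at 24w, against 12.0% and 11.0% of all genes. Predicted free RNA was 2.73% and 2.95% of the Stmn2 level at the older ages and 6.39% and 10.4% of the Stmn4 level. With the ratios centred on the median of all genes, a log2 shift of 0.15 at 12w and 0.17 at 24w, the 24w count fell to 0. Over the same ages the 7 pericyte markers, of which 7, 7 and 6 were detected, summed to 81.7, 908 and 1679 CPM in these cells, and the 7 OPC markers, of which 7, 6 and 2 were detected, to 320, 19.8 and 11.7 CPM. The part of either list in these ratios was not tested. Tuba1a was 1.39-fold (1.36 to 1.42) and 1.45-fold (1.39 to 1.52) higher and Tubb3 1.39-fold (1.33 to 1.46) and 1.33-fold (1.2 to 1.47), below the size that was counted.

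In NPC-like cells Tubb3 was over 2-fold above its P5 level at both older ages, 2.15-fold (1.86 to 2.47) at 12w and 2.40-fold (1.75 to 3.20) at 24w, from 926, 250 and 48 UMIs. Stmn2 was 2.26-fold (1.47 to 3.40) higher at 12w, from 31 UMIs and over a P5 level below that of PC-like cells, and Tuba1a 2.12-fold (1.97 to 2.28) higher at 24w. Predicted free RNA was 23.0% of the Stmn2 level at 12w, and with free RNA subtracted its log2 ratio was 0.82, under 2-fold. With ratios centred on the median of all genes Tuba1a at 24w had a log2 ratio of 0.95, under 2-fold as well, and by the mean of the cells' own CPM Tubb3 at 24w had 0.81. Tubb2a went the other way, to 0.396-fold (0.294 to 0.524) at 12w and 0.665-fold (0.371 to 1.10) at 24w. In all 3 of 10 members were past 2-fold at 12w and 2 of 10 at 24w, against 15.6% and 14.5% of all genes. Pericyte markers summed to 127, 819 and 1892 CPM in NPC-like cells, with 6, 6 and 7 of 7 detected, and OPC markers to 707, 21.0 and 30.5 CPM, with 7, 4 and 3 of 7 detected, and their part in these ratios was not tested. Against P5 cells of like sex 2 members passed at 12w, Tubb3 no longer among them. In the S-phase progenitor cluster 0 of 10 passed at 12w and 1 of 10 at 24w, Tubb2a at 0.369-fold (0.190 to 0.648), against 12.0% and 12.7% of all genes. Pericyte markers summed to 105, 1093 and 2206 CPM in that cluster, with all 7 detected at each age, and OPC markers to 913, 47.6 and 55.1 CPM, with 7, 7 and 4 of 7 detected, and their part in the Tubb2a ratio was not tested. The 24w values rest on 15 NPC-like cells and 28 cells of the S-phase progenitor cluster.

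In NSC-like cells the members past 2-fold were mostly those at the level of background, and all were lower. Dcx, at 0.279-fold (0.110 to 0.596), and Stmn4, at 0.436-fold (0.274 to 0.664), were past 2-fold at 12w. At 24w Tubb3 was at 0.311-fold (0.124 to 0.647), Dcx at 0.324-fold (0.0388 to 1.2) and Stmn2 at 0.102-fold (0.00256 to 0.574), from 7, 2 and 1 UMIs. Tubb3, Dcx and Stmn2 were close to or below the pericyte-like level at P5 with either choice of pericyte-like clusters, and so was Stmn4 at 12w, so no change of expression in NSC-like cells is read from these genes. At 24w Stmn4 was at 24.6 CPM (10.6 to 48.4), from 8 UMIs, against 10.1 CPM (7.24 to 13.8) in all pericyte-like cells. Stmn4 at P5, at 41.6 CPM (36.4 to 47.3), lay near the level of all pericyte-like cells and above that of the clusters led by pericyte markers. Stmn1 and Stmn3 stood above it: Stmn1 went from 1102 to 583 and 408 CPM, or 0.371-fold (0.310 to 0.440) at 24w, and Stmn3 from 139 to 80.1 and 49.1 CPM, or 0.353-fold (0.201 to 0.577) at 24w, while in PC-like cells Stmn1 was at 637, 253 and 110 CPM and Stmn3 at 92.2, 40.0 and 25.3 CPM, mostly in other clusters at P5 than later. Predicted free RNA was 50.8% and 39.1% of the Stmn1 level in NSC-like cells at 12w and 24w and 29.0% and 35.7% of the Stmn3 level. Pericyte markers summed to 270, 1193 and 2125 CPM in NSC-like cells, with all 7 detected at each age, and OPC markers to 523, 65.0 and 104 CPM, with 7, 7 and 3 of 7 detected, and their part in these ratios was not tested. The NSC-like cells came from clusters in unequal parts, 679, 267 and 72 in the largest, 486, 101 and 19 in the next and 64, 15 and 3 in the smallest. The part of this mix in the ratios was not tested either. The counts were 2 of 10 members at 12w and 5 of 10 at 24w, against 17.1% and 16.6% of all genes. Tubb2a, by contrast, was 1.42-fold (1.29 to 1.57) and 1.39-fold (1.15 to 1.66) of its P5 level, and Tubb2b 1.12-fold (1.06 to 1.17) and 1.02-fold (0.929 to 1.13), with predicted free RNA between 7.69% and 8.74% of their levels.

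**Figure D3:**
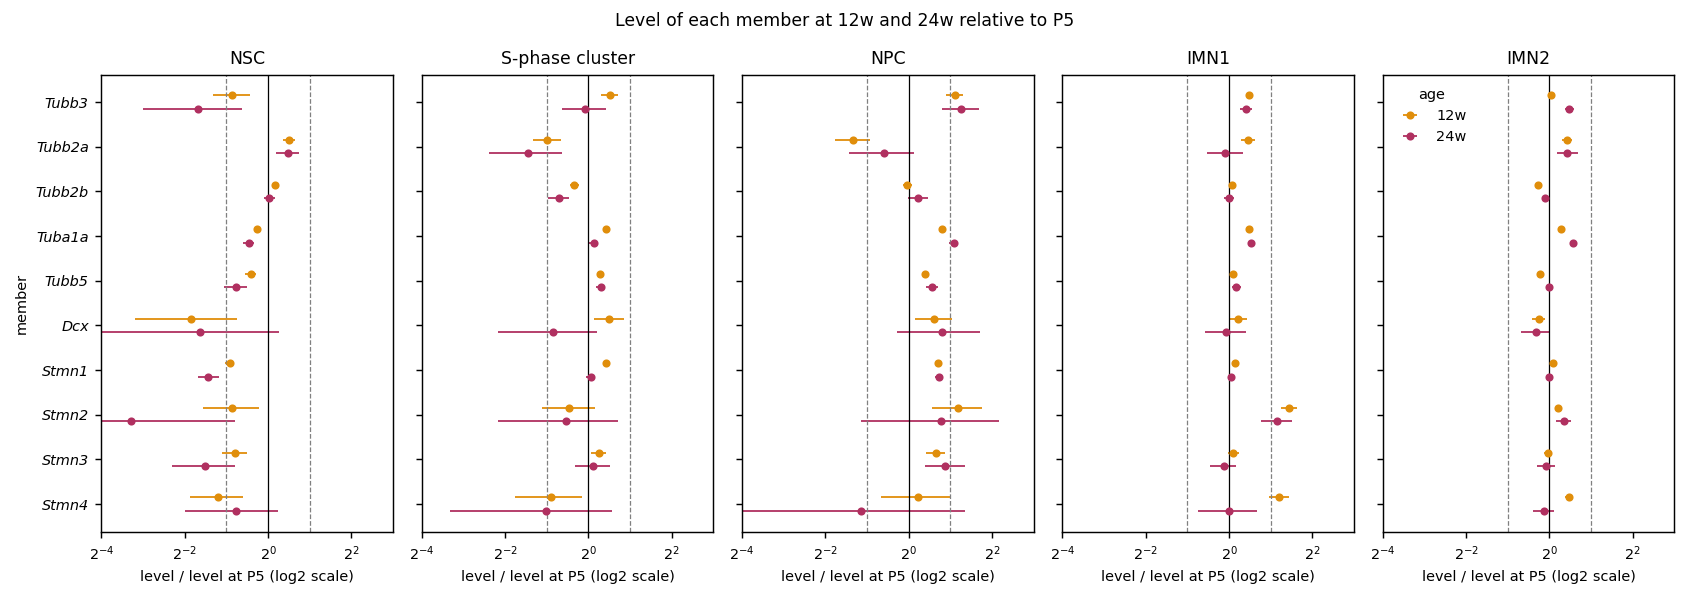
Ratio of the pooled CPM at 12w and at 24w to P5 (log2 axis) for each member and neurogenic group, with bars for exact conditional binomial intervals at 95%. The IMN2-like points lie between 0.799 and 1.47, while Stmn2 in IMN1-like cells lies at 2.72 and 2.23.

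NSC-like, NPC-like, IMN1-like, IMN2-like and AS-like cells at 3 ages gave 15 pools, with the S-phase progenitor cluster joined to the NPC-like cells. The genes whose levels followed each member most closely over these pools were found by Pearson correlation of log2(CPM + 1), a description over pools that share libraries. For Tubb3 they were Usp22 (r = 0.991), the neuronal transcription factor gene Neurod1 (r = 0.990) and the potassium channel gene Kcnb2 (r = 0.989). Dcx was followed by Crmp1 (r = 0.989), a collapsin response mediator, Csnk1e (r = 0.989) and Rnf165 (r = 0.986), and Tuba1a by Tcf4 (r = 0.992), Mkrn1 (r = 0.988) and Dync1li1 (r = 0.983). Tubb5 was nearest to Dazap1, Smarce1 and Psmd14 with r of 0.994, 0.988 and 0.985, and Stmn1 to Hnrnpa1, H3f3b and Rpl7a with r of 0.992, 0.992 and 0.990. Stmn2 was nearest to Osbpl5, Pak7 and Plppr3 with r of 0.977, 0.976 and 0.967, and Stmn4 to Sh3bp5, Hecw1 and Calb2 with r of 0.976, 0.974 and 0.972, Calb2 being an IMN2 marker. Stmn3 was nearest to Eef2 (r = 0.991), Rnf165 (r = 0.989) and Podxl2 (r = 0.988). Tubb2b was nearest to Impdh1, Sorbs2 and Mcf2l with r of 0.956, 0.948 and 0.946, and Tubb2a to Neu1, Gramd1b and Porcn with r of 0.929, 0.927 and 0.902. Among the members themselves the closest pair was Tubb5 with Stmn1 (r = 0.991), and Tubb2a had r from -0.43 with Stmn1 to 0.496 with Tubb2b.

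Across 5 lists of related genes, 6 of 77 genes were past 2-fold in IMN2-like cells at 12w (7.79%, against 15.2% of all genes) and 11 of 77 at 24w (14.3%, against 12.1%). In IMN1-like cells the counts were 4 of 72 at 12w (5.56%, against 12.0%) and 3 of 71 at 24w (4.23%, against 11.0%). Among 27 other microtubule-associated proteins, 25 could be compared in IMN2-like cells at 12w and 3 were past 2-fold, with a median log2 ratio of 0.00 against 0.12 over all genes. Dpysl2, a tubulin-binding collapsin response mediator, was at 321, 727 and 742 CPM, 2.26-fold (2.10 to 2.44) higher at 12w. Clasp2, which binds growing microtubule ends, was at 24.7, 86.1 and 81.3 CPM, 3.49-fold (2.71 to 4.51) higher at 12w. Dclk1, a kinase related to Dcx, went the other way, at 205, 81.3 and 98.3 CPM, or 0.396-fold (0.331 to 0.470) at 12w. Of 12 other tubulins 0 of the 6 compared were past 2-fold at 12w, of 20 genes for tubulin folding and modification 1 of 19, of 21 for motors, severing and nuclear movement 1 of 19, and of 8 neuronal fate regulators 1 of 8. These were the tubulin deglutamylase gene Agbl5, with 27 and 26 UMIs and 2.12-fold (1.19 to 3.78) higher at 12w but 0 UMIs at 24w, where the interval of the ratio reached 2.07, Nde1, from 90 to 15 UMIs with free RNA at 61.6% of the level, and Rest, from 30 to 6 UMIs with free RNA at 40.2%. In IMN1-like cells 4 of 25 microtubule-associated proteins were past 2-fold at 12w, with a median log2 ratio of 0.20 against 0.15 over all genes, and 0 genes of the other 4 lists. At 24w in IMN2-like cells 5 of 25 microtubule-associated proteins, 3 of 19 motor, severing and nuclear movement genes, 1 of 6 other tubulins, 1 of 19 folding and modification genes and 1 of 8 fate regulators were past 2-fold.

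Chromatin accessibility at the start sites was a readout that the choice of the members did not use. Labels were carried over from the scRNA-seq cells with the members kept out of the genes that link both assays, although the members' peaks stayed in the reduction that weights the labels. Counts were taken over the whole of each peak that reaches within 1 kb of a start site. Every member had 1 such peak in each library. The counts are given per 1000000 counts in peaks of the class (CPM as well), with exact Poisson intervals. They cover 426, 550 and 167 cells labelled NSC and 1323, 1766 and 230 labelled IMN2 (P5, 12w and 24w) at a label score of at least 0.5. The start sites of IMN2 markers were no more open in cells labelled IMN2 (321, 351 and 327 CPM) than in those labelled IMN1 (323, 388 and 395 CPM), so these markers do not tell the 2 neuron labels apart. Those of IMN1 markers were higher in cells labelled IMN1 (470, 519 and 405 CPM) than in those labelled IMN2 (371, 421 and 329 CPM) or NSC (177, 122 and 94.9 CPM). Those of NSC markers were at 296, 361 and 395 CPM in cells labelled NSC and at 262, 268 and 291 CPM in those labelled IMN2, a small separation, and at 299 CPM in the S-phase progenitor label at P5.

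Tubb3, Stmn2 and Stmn4 were the members whose start sites were at least 2-fold more accessible in IMN2-like than in NSC-like cells at all 3 ages. The share of all genes past this rule was not counted. The set depended on the neuron label. In IMN1-like cells the ratio to NSC-like cells was 4.91, 5.42 and 20.1 for Tubb3 and 3.73, 9.71 and 16.3 for Stmn2 (P5, 12w and 24w). For Dcx it was 2.44, 5.16 and 2.76 (1.67 to 4.57 at 24w), past 2-fold at all 3 ages. For Stmn4 it was 1.31, 2.63 and 6.40, short of 2-fold at P5. Tubb3 had 17.8 (15.7 to 20.2), 14.4 (12.5 to 16.4) and 4.88 (3.42 to 6.75) CPM in NSC-like cells at P5, 12w and 24w, and 95.8, 76.5 and 82.4 in IMN2-like cells, a ratio of 5.37 (4.72 to 6.13), 5.32 (4.65 to 6.12) and 16.9 (12.1 to 24.3). Stmn2 had 5.32, 3.5 and 1.63 CPM in NSC-like cells and 41.0, 35.3 and 46.6 in IMN2-like cells, and its ratio was 7.70, 10.1 and 28.7. Stmn4 had 13.9, 8.16 and 2.57 CPM in NSC-like cells and 49.6, 40.6 and 52.1 in IMN2-like cells, and its ratio was 3.57, 4.98 and 20.2. For each of the 3 genes the NSC-like counts at 24w lay below those at P5 with intervals that did not overlap, in peaks of 4297 and 3695 bases for Tubb3, 2838 and 2699 for Stmn2 and 2497 and 2068 for Stmn4 at P5 and 24w. The 7 IMN1 marker genes were lower with age at their start sites in the same cells, and in PC-like cells, at 102, 55.1 and 34.1 CPM. The start sites of 7 pericyte markers were at 116, 339 and 280 CPM in the NSC-like cells. AS-like cells had 17.0, 4.68 and 1.59 CPM at Tubb3 and 7.35, 1.7 and 0 CPM at Stmn4, where the interval at 24w reached 1.47. PC-like cells had 14.8, 12.0 and 14.2 CPM at Tubb3, so that NSC-like cells at 24w lay below the background class, and the part of these values in the difference between ages was not tested. Stmn4 separated the neuron labels as well, with 18.1, 21.5 and 16.5 CPM in IMN1-like cells.

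The other members fell short of 2-fold in IMN2-like cells at 1 age or more. Dcx had 8.13, 3.89 and 4.47 CPM in NSC-like cells. Its ratios of IMN2-like to NSC-like cells were 2.19 (1.79 to 2.70), 3.85 (2.97 to 5.09) and 1.89 (1.27 to 2.88) and those of Stmn3 1.75, 2.12 and 4.65, from 18.1, 11.8 and 5.96 CPM in NSC-like cells. Stmn1 was at 1.67, 1.37 and 1.43 and Tuba1a at 1.37, 1.11 and 1.41. For Tubb5 the ratios were 1.39, 1.01 and 1.05, although its UMIs were 7.09-fold, 8.13-fold and 12.0-fold higher in IMN2-like cells. Tubb2b, at 1.55, 0.888 and 1.08, and Tubb2a, at 1.10, 0.908 and 1.13, differed by less than 1.5-fold between the 2 classes at the older ages. IMN2-like cells had 17.8, 15 and 8.44 CPM at Dcx and 132, 95.3 and 116 CPM at Tubb2b. Counts were not divided by the length of the peak, which was 6688, 6562 and 6431 bases for Tubb2b, so members are not ranked by them. Peaks were called in each library on its own, and the Dcx peak spanned 2702, 2718 and 907 bases, so its 24w value covers a narrower stretch and is not compared with the other ages.

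**Figure D4:**
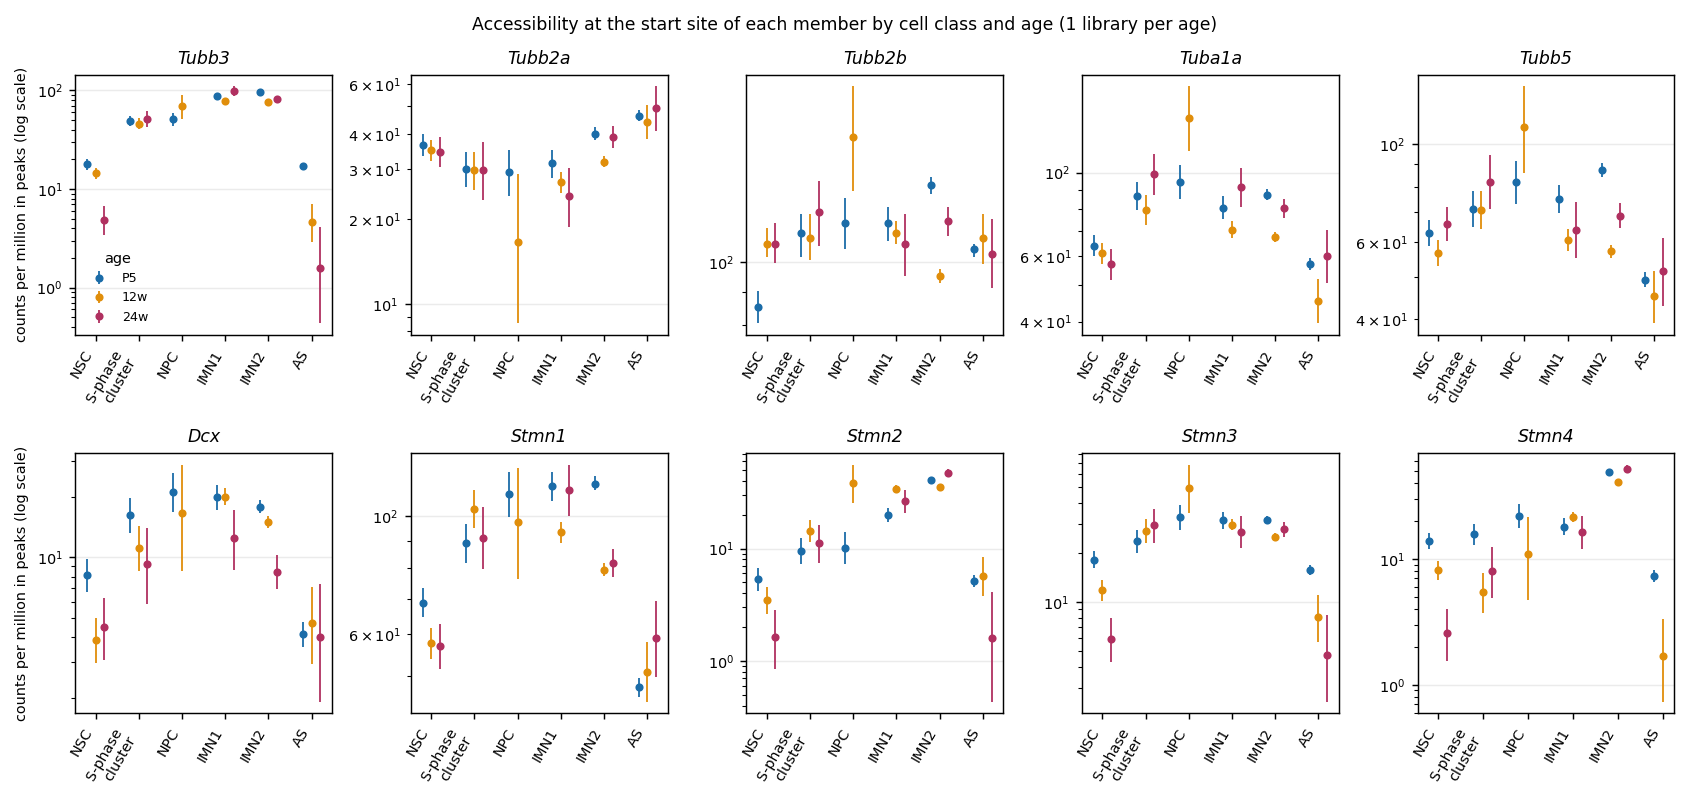
Counts in the whole peak that reaches within 1 kb of each member's start site, per 1000000 counts in peaks (CPM, log axis), by class and age, with bars for exact Poisson intervals at 95%. Tubb3, Stmn2 and Stmn4 separate the IMN2-like from the NSC-like cells, by 5.37-fold, 7.70-fold and 3.57-fold at P5. At 24w the ratios are 16.9 (12.1 to 24.3), 28.7 (16.3 to 55.8) and 20.2 (12.9 to 33.8), from 36, 12 and 19 NSC-like counts. Tubb2a, Tubb2b and Tubb5 lie within 2-fold at each age.

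In the cultured NSCs the question was whether Setd8 KD changed these genes. Of the 4 RNA-seq libraries with TPM, those labelled Ctrl_3, Setd8KD_1 and Setd8KD_2 match control columns of the study's own data set at 170 of 170 genes compared, and the library labelled Setd8KD_3 matches a KD column at 170 of 170. The targeted gene went with this match and against 2 of the titles: Setd8 was at 154, 143 and 143 TPM in the first 3 libraries and at 36.4 TPM in the last (log2 fold change -1.98, SE 0.0674, limma adjusted p = 0.000113). The first 3 are therefore compared as controls with 1 KD library, which is assumed to vary like the controls, and whether the libraries came from separate cultures is not given, so p-values measure the spread between these libraries only. The libraries held between 20040058 and 21493328 reads recovered from TPM and gene length. In bulk RNA, fewer cells of a type and less RNA per cell cannot be told apart. With the titles taken as they stand, limma called 0 of all 12703 genes, with 86 at an unadjusted p under 0.05, and 0 members.

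The cultured NSCs expressed the 4 tubulin members other than Tubb3 at high levels. Tubb5 was at 1902, 1992 and 2059 TPM in the control libraries, Tuba1a at 768, 806 and 816 TPM, Tubb2b at 530, 603 and 622 TPM and Tubb2a at 525, 575 and 566 TPM. Stmn1 was at 41.4, 40.6 and 44.5 TPM and Stmn3 at 17.0, 20.2 and 16.6 TPM, while Tubb3 was at 0.987, 1.28 and 1.49 TPM. Dcx and Stmn2 gave 0 reads in all 4 libraries. By control mean Tubb5 ranked 37 and Tuba1a 135 among 24062 genes, and Tubb3 ranked 12414.

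Stmn3 showed the largest change in the KD library among the 7 members that passed the filter on low values. It was at 117 TPM there, from 1173 reads against 170, 209 and 161 in the controls, 6.26-fold higher on the log2(TPM + 1) scale (log2 fold change 2.65, SE 0.12, limma adjusted p = 0.000113). Tubb3 was at 4.34 TPM, from 66 reads against 15, 20 and 22, 2.38-fold higher on that scale (log2 fold change 1.25, SE 0.203, adjusted p = 0.00386 by limma), a scale that understates the change of a gene this low, for which the ratio of TPM was 3.47. Stmn3 and Tubb3 were thus above every control library. Tubb5 fell to 1291 TPM, below every control library (log2 fold change -0.62, SE 0.0573, limma adjusted p = 0.000528), 1.54-fold lower and just past the 1.5-fold used. With no filter on low values, which adjusts over 24062 genes, the log2 fold changes of Tubb3 and Tubb5 stayed at 1.25 and -0.62 but neither was called, and Stmn3 was.

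On the log2(TPM + 1) scale Stmn1 and Tuba1a were 1.49-fold and 1.41-fold lower, less than the 1.5-fold that a call required. Their ratios of TPM to the control mean were 0.665 and 0.711, so Stmn1 lay at the edge of that rule. Stmn1 was at 28.0 TPM in the KD library (log2 fold change -0.57, SE 0.0806, limma adjusted p = 0.00227) and Tuba1a at 567 TPM (log2 fold change -0.49, SE 0.0539, limma adjusted p = 0.000898), both below all 3 controls. Tubb2a, at 564 TPM, and Tubb2b, at 574 TPM, lay within the range of the controls, with log2 fold changes of 0.02 (SE 0.0638, adjusted p = 0.794 by limma) and -0.02 (SE 0.0899, adjusted p = 0.848 by limma), and their near-identical sequences were a source of shared reads whose division was not tested. Stmn4 was below the filter on low values, with 0, 0 and 2 reads in the controls and 7 in the KD library, a ratio of 10.6 (2.03 to 105, counting error only). Of the 10 members 7 passed the filter, 2 were called higher and 1 lower, against 14.8% of all 12703 genes called in either direction. At an adjusted p under 0.05 with no minimum fold 5 of the 7 passed, against 41.7% of all genes.

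**Figure D5:**
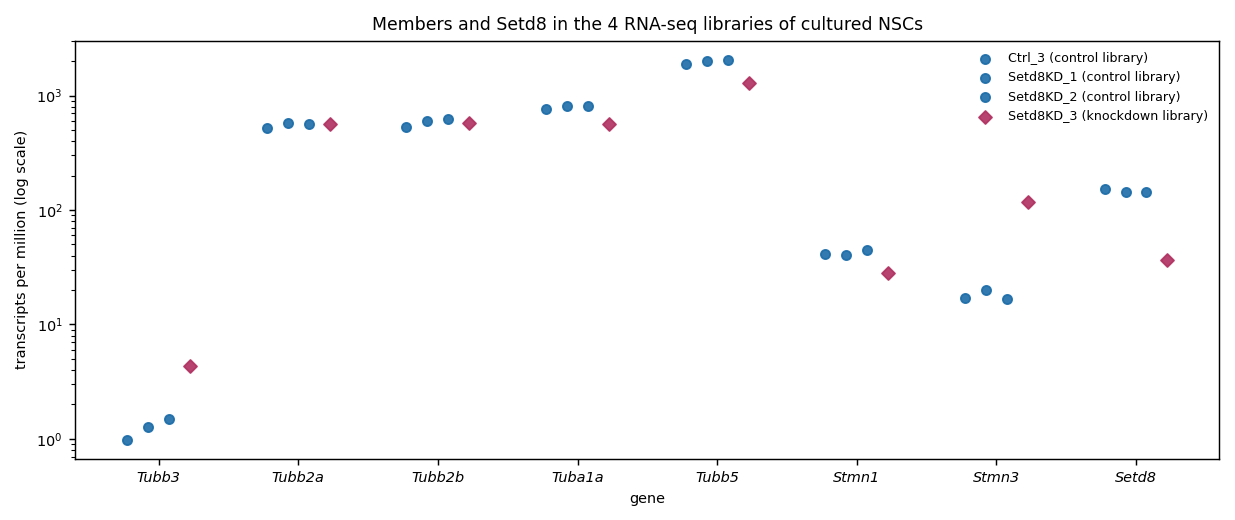
TPM of the members (log axis) in the 3 control libraries, labelled Ctrl_3, Setd8KD_1 and Setd8KD_2, and in the KD library, labelled Setd8KD_3, with 1 point per library. The KD point of Stmn3, at 117 TPM, and that of Tubb3, at 4.34 TPM, lie above the controls, and that of Tubb5, at 1291 TPM, lies below them.

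The make-up of both families in culture moved with these calls. Tubb5 took 63.5% ± 0.747 (SD, n = 3) of the TPM of the 4 β-tubulins in the controls and 53.0% in the KD library, while Tubb2a went from 17.8% ± 0.354 to 23.2% and Tubb2b from 18.7% ± 0.672 to 23.6%. Tubb3 went from 0.0399% ± 0.0063 to 0.178% and so remained a trace of the β-tubulin pool. Among the stathmins Stmn1 took 70.1% ± 3.06 in the controls and 19.2% in the KD library, and Stmn3 29.8% ± 3.19 and 80.3%, so that the order of the 2 genes was exchanged. All of these KD shares lay outside the range of the 3 controls.

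Of 80 related genes tested in 5 lists, 12 were called in the KD library, or 15% against 14.8% of all genes. Of 11 other tubulins tested 1 was higher and 2 were lower, with a median log2 fold change of -0.26 against 0.00 over all genes. Tuba1b fell to 69.2 TPM from 133, 142 and 135 TPM (log2 fold change -0.97, limma adjusted p = 0.000185), the γ-tubulin gene Tubg1 fell to 100 TPM from 151, 148 and 155 TPM (-0.59, limma adjusted p = 0.000556), and Tuba4a rose to 5.85 TPM from 3.26, 2.84 and 3.30 TPM (0.73, limma adjusted p = 0.00967). Of 25 microtubule-associated proteins 4 were higher and 1 was lower, with a median of 0.07. Crmp1, the gene nearest to Dcx in the DG, rose to 38.4 TPM from 17.8, 19.4 and 19.6 TPM (0.98, limma adjusted p = 0.000529), the plus-end protein gene Clip1 rose by 0.66, and Dpysl3 fell to 71.6 TPM from 105, 115 and 109 TPM (-0.61, limma adjusted p = 0.000939). In the list of tubulin folding and modification 1 of 19 rose, Tbcel by 0.71, and 1 fell, the detyrosinase gene Vash1 (-0.63), and among 18 motor, severing and nuclear movement genes Ndel1 rose by 0.69 and the severing enzyme gene Spast fell (-0.94). Of 7 neuronal fate regulators 0 were called, and their median was 0.02.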

How the data were processed

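The scRNA-seq values are raw counts of UMIs per gene and barcode that the authors made with Cell Ranger 2.2.0 on mm10, and the scATAC-seq values are counts per peak and barcode that the authors made with Cell Ranger ATAC 1.2.0 on mm10, with peaks called separately in each library. The RNA-seq values are TPM deposited by the authors after trimming with Trimmomatic and alignment of 50-base single-end reads with STAR on mm10; reads were recovered from TPM and gene length, and 100% of values came out whole to within 0.02 reads.

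A barcode counted as a cell from 1000 UMIs and 500 genes upwards if its mitochondrial share did not exceed 10%, and scrublet in scanpy 1.11.5 then removed 932, 80 and 3 doublets from the P5, 12w and 24w libraries. Cells were clustered in Seurat 5.3.0 with 2000 variable genes without the members, 30 dimensions and a resolution of 0.8. Naming a cluster from a marker list took a score of 0.5 or more with 3 or more raised markers, and 554 cells met it for no list. A further 2717 cells were named but left out: 1776 in clusters whose best list was blood, 140 Cajal-Retzius or vascular leptomeningeal, and 801 that scored as OPC or PC when neural clusters were clustered again. Free RNA was predicted from barcodes with 10 to 100 UMIs and the vascular markers in each class. Log2 ratios had 0.5 UMIs added. scATAC-seq cells with 3000 to 100000 counts in peaks were used. Intervals cover counting error only, since UMIs and fragments of 1 library say nothing of the spread between mice.

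The knockdown was tested with limma 3.58.1 in R 4.3.3 on log2(TPM + 1) over the 12703 genes with a mean of at least 1 TPM, with Benjamini-Hochberg adjustment over all of them; a gene was called at an adjusted p under 0.05 and at least 1.5-fold. Tested on simulated data of this comparison over 12637 genes, the fit recovered 83.8% of genes changed 2-fold and 95.9% of those changed 4-fold, with 25 false calls. The rule of 2-fold with age, tested on simulated data of IMN2-like cells at 12w over 8195 genes, passed 98.0% of genes changed 3-fold, 5.00% of those changed 1.5-fold and 12 of 7995 unchanged genes. The simulated KD library was given the spread between the controls, which a lone KD library cannot show. The simulated ages held counting error only, with no difference between mice, sexes or free RNA. Neither simulation therefore measures how often calls in the data are wrong. edgeR 4.0.16 on the recovered reads was an alternative.

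The genes named are the 10 members, Setd8, for each member the 3 genes with the nearest pattern over 15 pools among genes with at least 20 UMIs in some pool, and of each list of related genes the 2 with the largest call in each direction in the knockdown and the 2 furthest past 2-fold in each direction in IMN2-like cells at 12w. The members, lists and tests were chosen with earlier results of these data known. Files of the libraries labelled Ctrl_1 and Ctrl_2 held gene symbols and gene lengths, and the bulk ATAC-seq and H4K20me1 libraries were not used here. Sequences are RefSeq windows on GRCm38.p6, the build that mm10 names.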

Additional observations from a re-analysis of the deposited data

Results flagged for a closer look

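For 3 members the change with age went past 2-fold upwards in one class and downwards in another. Tubb3 at 24w was at 2.40 times its P5 level in NPC-like cells and at 0.311 times in NSC-like cells. Stmn2 at 24w was at 2.23 times its P5 level in IMN1-like cells and at 0.102 times in NSC-like cells, the latter from 1 UMI at 24w. Stmn4 at 12w was at 2.28 times its P5 level in IMN1-like cells and at 0.436 times in NSC-like cells. With 1 library per age none of these differences between classes was tested. The NSC-like values lay near or below the pericyte-like level, and predicted free RNA was 161% of the Tubb3 value at 24w, 533% of the Stmn2 value at 24w and 133% of the Stmn4 value at 12w.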

How the results depend on the processing

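No paired analysis was possible because the control and knockdown libraries compared share fewer than 2 replicate numbers. Of the members tested in the knockdown, 3 were called; 1, Stmn3, was called with no filter on low values, at the same fold changes, 0 with the grouping by GEO title and 5 at an adjusted p alone, and leaving out each control in turn gave 3 to 4. With edgeR on the recovered reads and with a pseudocount of 0.1, 4 were called each, and 3 with TPM scaled by the median ratio.

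Members past 2-fold with age changed as follows. With the median log2 ratio scaled to 0 there were 2 in the S-phase progenitor cluster at 12w (0 before), 1 in NPC-like cells at 24w (2 before) and 0 in IMN1-like cells at 24w (1 before). With predicted free RNA subtracted, which by its construction lowers only 12w and 24w, there were 6 and 8 in NSC-like cells at 12w and 24w (2 and 5 before) and 3 and 3 in the S-phase progenitor cluster (0 and 1 before). A rule of 1.5-fold gave 6 in NSC-like cells at 12w, 2 and 4 in the S-phase progenitor cluster and 7 and 4 in NPC-like cells at 12w and 24w. The mean of the cells' own CPM gave 3 and 2 in the S-phase progenitor cluster at 12w and 24w and 4 in NPC-like cells at 24w. Apart from the smaller set of reads left by subtraction, the cause was not tested. No share of all genes is given for these alternatives, so the counts cannot be set against one. The count of 0 in IMN2-like cells held under all of these, and also in the largest IMN2 cluster alone, an alternative chosen after seeing the data. The count of 10 members highest in IMN1-like or IMN2-like cells and that of 3 members with start sites at least 2-fold more accessible in IMN2-like cells were the same under each alternative run for them. Neither count was set beside the share of all genes. The alternatives for start sites did not include IMN1-like cells, in which Dcx passed the rule and Stmn4 did not. Of single members past 2-fold with age or called in the knockdown, 0 changed sign. Among those not called, the age log2 ratio changed sign in 34 cases, all from values between -0.13 and 0.25, the widest being Stmn4 in NPC-like cells at 12w, from 0.25 to -0.89 with free RNA subtracted. In the knockdown Tubb2b went from -0.02 to 0.18 with the grouping by GEO title. Leaving out each control in turn gave Tubb2b -0.09 to 0.02, above 0 without the library labelled Setd8KD_2, and Tubb2a -0.02 to 0.05, below 0 without Ctrl_3. The lowest depth, 98297 UMIs in 15 NPC-like cells at 24w, limits what could be read there: 3 UMIs correspond to 30.5 CPM.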

Other observations

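Outside the neurogenic lineage Stmn4 was higher at the older ages in oligodendrocyte lineage cells, with 1 library per age and no test. The 138, 34 and 24 OL-like cells of P5, 12w and 24w held 31.3 CPM (21.3 to 44.4), 236 (176 to 309) and 745 (609 to 902) of Stmn4, from 31, 52 and 105 UMIs. At 24w this was above the 495 CPM of IMN2-like cells. OPC-like cells held 154 CPM (144 to 166), 289 (187 to 427) and 525 (252 to 965), the last from 10 UMIs in 8 cells. Predicted free RNA was 8.94% and 2.41% of the Stmn4 level in OL-like cells at 12w and 24w, and Stmn2 in the same cells was at 31.3, 4.53 and 7.09 CPM. Dcx in OPC-like cells was at 80.6 CPM (72.9 to 89.0) at P5, above the 17.3 CPM (12.0 to 24.2) of PC-like cells.

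Interneuron-like cells, 24 at P5 and 70 at 12w, exceeded IMN2-like cells for most members at 12w. Their cluster was led by Dlx1, Sp9 and Dlx2, with 5 of 8 interneuron markers raised, and how mature these cells were was not tested. Tubb3 was at 1992 CPM (1743 to 2266) at P5 and 3731 (3481 to 3994) at 12w in them, Stmn2 at 450 (336 to 591) and 2134 (1946 to 2335), and Stmn4 at 130 (72.7 to 214) and 1119 (984 to 1267). At 12w IMN2-like cells were at 0.486-fold (0.450 to 0.525) of the interneuron-like level of Tubb3, at 0.414-fold (0.374 to 0.460) of that of Stmn2 and at 0.674-fold (0.588 to 0.774) of that of Stmn4. At P5 they were above the interneuron-like level of Stmn4 at 4.19-fold (2.53 to 7.49), Tubb2a at 1.93-fold, Tubb2b at 1.90-fold, Stmn2 at 1.69-fold, Dcx at 1.51-fold, Stmn3 at 1.18-fold and Tuba1a at 1.14-fold. Tubb3, Tubb5 and Stmn1 were lower, at 0.886-fold, 0.914-fold and 0.786-fold.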
